A study of Mus musculus with 2 samples.

Results

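The mouse mitochondrial genome carries 37 genes, and all 37 are described here. They were taken as every gene whose symbol starts with mt-, out of 55536 annotated genes, and comprise 13 mRNAs, 2 rRNAs and 22 tRNAs. The RNA came from macrophages grown from the bone marrow of C57BL/6J mice, as primary cells. The cells were held with lipid A, the TLR4-activating part of lipopolysaccharide, at 100 ng/ml for 12 h, then washed and left for 12 h, then given 100 ng/ml again for 90 min. Total RNA of the nucleoplasmic fraction, called a nuclear fraction elsewhere in the labels, was depleted of ribosomal RNA and sequenced with a size range of 250 to 400. Both libraries received this same treatment and form 1 group of 2. Replicate 1 started from 1 µg and replicate 2 from 500 ng of RNA. Both are labelled as biological replicates, yet 1 donor entry covers them, so the spread between them may be technical. No untreated or cytoplasmic library was analysed here, so the values are levels within 1 condition.

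Mitochondrial DNA is circular and is transcribed from both strands into long precursors. Most mRNAs and both rRNAs are bordered by tRNAs, and excision of the tRNAs releases the RNAs between them. The mRNAs encode subunits of respiratory complexes I, III and IV and of the ATP synthase (complex V), while every protein that transcribes, cuts or degrades these RNAs is encoded in the nucleus and imported. Fragments of mitochondrial DNA have also been copied into nuclear chromosomes during evolution, where they are annotated as pseudogenes. In the mm10 annotation used by the depositors, 28 members lay on the plus strand of the mitochondrial chromosome, the product of heavy-strand transcription, and 9 on the minus strand. The 36 pairs of neighbouring members overlapped in 9 cases and lay 0 to 5 bases apart in 26, with a largest gap of 32 bases.

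The libraries held 29400104 and 17789543 gene counts by RSEM, which splits reads shared between genes by a model, and 39148298 and 31973373 by kallisto, which does so by compatible transcripts. Replicate 2 was the shallower library by both programs. All 10 macrophage markers were above 1 TPM (abundance scaled for length and depth) in both libraries, with means of 6.43 to 899 TPM. Of 36 markers of other blood, stromal and endothelial cells, 2 reached 1 TPM in both libraries: Pf4 at 11.1 and 17.4 TPM and Kdr at 10.6 and 4.99 TPM.  In a bulk library, fewer cells of a type and less RNA per cell cannot be told apart.

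Mitochondrial RNA took 4.26% of RSEM expected counts in replicate 1 (exact binomial 95% interval 4.25 to 4.27, counting error only) and 11.3% in replicate 2 (11.26 to 11.29). The mean was 7.77% ± 4.96 (SD, n = 2). The share was 2.65 times as large in replicate 2, and by RSEM that difference lay in the mRNAs. The mRNAs took 4.11% of counts in replicate 1 and 11.2% in replicate 2. The rRNAs took 0.151% in replicate 1 and 0.0519% in replicate 2, the opposite order. These shares leave out reads that RSEM placed on nuclear copies of the members, described below. With the copies counted in, the total was 5.33% and 14.3% of RSEM counts. By kallisto the mRNA shares were 3.64% and 9.79%, and the rRNA shares were 0.164% and 0.0634%. In TPM, which divides by length, the mRNAs took 3.22% and 12.5% by RSEM and 1.39% and 6.19% by kallisto. The size of the share thus depended on unit and program, while replicate 2 was higher for mRNA and lower for rRNA on each of the 4 scales. A list of 7 nuclear RNAs had a median replicate 2 to replicate 1 ratio of -0.45 on the log2 scale, and its members went both ways (-1.05 to 1.03). For 10 abundant cytoplasmic mRNAs the median was -0.35 (-0.83 to 0.49). The part of fractionation or input amount in the mitochondrial difference was not tested.

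**Figure D1:**
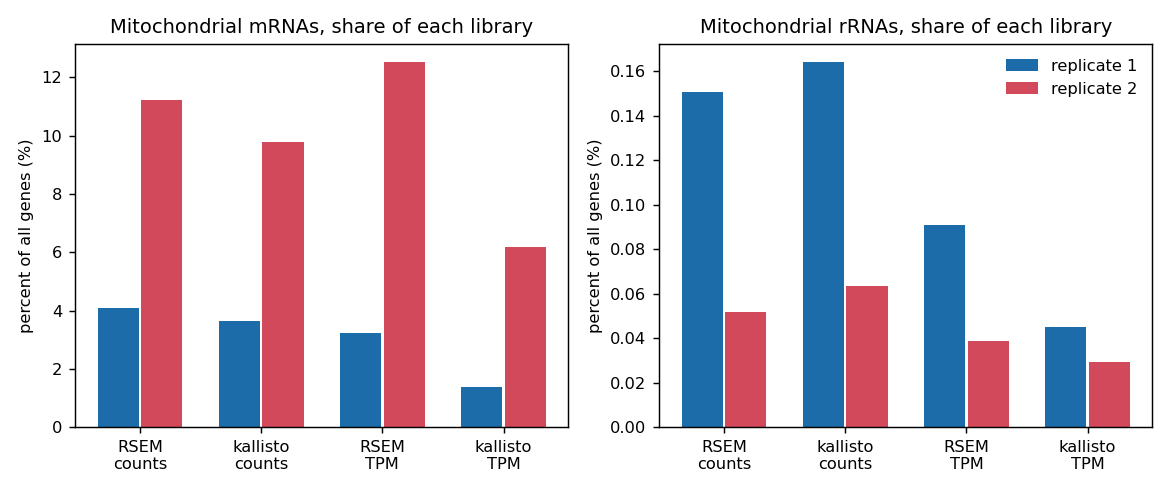
Share of each library on mitochondrial mRNAs (left) and rRNAs (right), in percent of all genes, for counts and TPM of both programs. Bars are single libraries. Replicate 2 is the higher bar for the mRNAs (11.2% against 4.11% of RSEM counts) and the lower bar for the rRNAs (0.0519% against 0.151%).

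Nuclear copies of these genes bear on how the mRNA counts were placed. Of the 37 members, 7 shared at least 25% of their 31-base words with an annotated nuclear copy, and 5 of them shared over 90%. These 5 were mt-Co3 with the copy Gm28437 (99.9% of words), mt-Co2 with Gm28661 (99.5%), mt-Atp6 with Gm10925 (99.5%), mt-Nd4l with Gm10222 (98.9%) and mt-Nd3 with Gm28438 (98.1%). mt-Nd4 shared 62.8% with Gm28439, and mt-Co1 shared 45.2% with Gm13340 on chromosome 2 and 29.6% with Gm29216. The 7 copies on chromosome 1 lie side by side, all on the minus strand, in chr1:24611535-24616197, a stretch of 4663 bases. Over the aligned length the copies of mt-Co3 (783 bases), mt-Co2 (681), mt-Atp6 (678), mt-Nd4l (294) and mt-Nd4 (876) had 0 differing bases, and the copy of mt-Nd3 had 1 in 345. The copies of mt-Co1 were less alike, with 37 differing bases in 1545 for Gm13340 and 6 in 492 for Gm29216. mt-Co2 had a second copy on chromosome 2, Gm13341, which shared 47.1% of its words and held 9.26 and 54.8 RSEM counts, and it is included in the sums for mt-Co2. No annotated copy covered mt-Atp8 beyond the 43 bases it shares with mt-Atp6.

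The letters below show how little separates member and copy. Shown 5′ to 3′ from the mm10 GENCODE M21 transcripts are the first 42 bases of mt-Nd3 (chrM:9459-9500, plus strand) and of Gm28438 (chr1:24613078-24613119, minus strand), with the one differing base in capitals, T3C, counted from the first base of the mitochondrial gene. The last bases of mt-Co2 (chrM:7655-7696, plus strand) and Gm28661 (chr1:24614885-24614923, minus strand) follow, with capitals for the stop codon that lies beyond the end of the annotated copy.
mt-Nd3: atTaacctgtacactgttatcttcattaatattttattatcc
Gm28438: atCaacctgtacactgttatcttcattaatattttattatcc
mt-Co2: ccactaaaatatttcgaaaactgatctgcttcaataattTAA
Gm28661: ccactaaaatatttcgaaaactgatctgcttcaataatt

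The deposited counts carried the mark of this sharing. Of the 15 mRNAs and rRNAs, 8 had whole-number RSEM counts in both libraries (within 1e-09), and none of these 8 had a copy at or above the 25% share. The other 7 had fractional counts, and they were the 7 members with a copy. When the expected counts of each of the 7 members with fractional counts were added to those of its copies, the sum was whole within 0.05 in both libraries for 7 of 7. The fractional reads were thus divided within these sets of genes and not outside them.

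RSEM and kallisto divided the same sets in different ways. RSEM left 3.27% of the set on mt-Co2 in replicate 1 and 1.09% in replicate 2, where kallisto left 16.2% and 8.09%. For mt-Atp6, RSEM gave the mitochondrial gene 9.41% and 8.48%, and kallisto gave it 91.8% and 99.9%. For mt-Co3 the shares were 13.0% and 6.70% by RSEM and 69.4% and 54.3% by kallisto. For mt-Nd4l RSEM gave 47.9% and 14.1%, and kallisto placed all counts on the mitochondrial gene in both libraries. For mt-Nd3 RSEM gave 42.4% and 30.2%, and kallisto gave 100% and 99.9%. mt-Nd4 kept 100% and 79.2% by RSEM and 82.0% and 69.3% by kallisto, and mt-Co1 kept 98.1% and 99.9%, then 94.9% and 97.0%. The mitochondrial gene held the smaller part by RSEM in both libraries for 5 members, and for mt-Co2 by kallisto too.

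**Figure D2:**
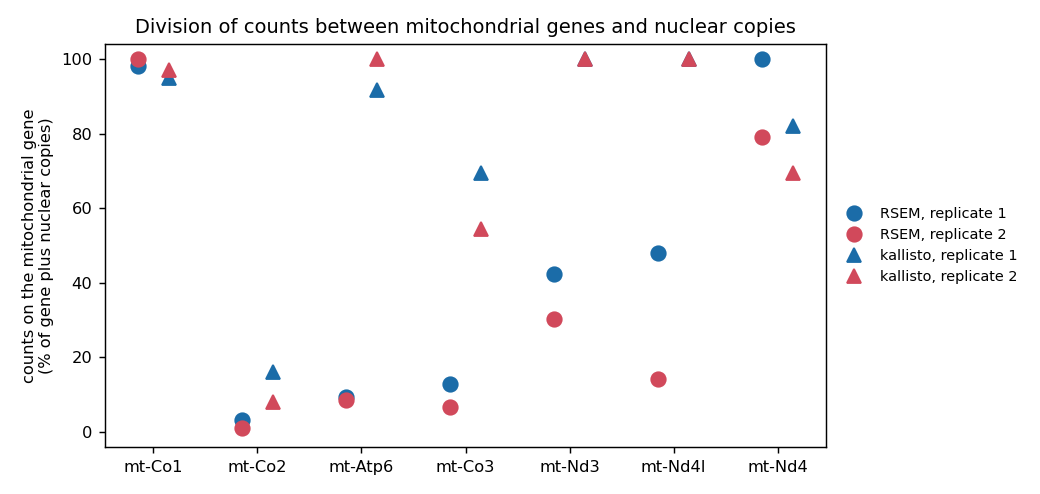
Percent of the counts of a mitochondrial gene plus its nuclear copies that each program placed on the mitochondrial gene, for the 7 members with copies. Circles are RSEM, triangles kallisto, colours the replicates. mt-Atp6 sits near 9% by RSEM (9.41% and 8.48%) and above 90% by kallisto (91.8% and 99.9%).

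The copies mirrored these divisions. Gm28661 held 124676 and 173701 expected counts by RSEM in replicates 1 and 2, and 113466 and 220399 estimated counts by kallisto. Gm10925 held 83183 and 156797 by RSEM but 8051 and 317 by kallisto. Gm28437 held 84065 and 126181 by RSEM and 30955 and 84923 by kallisto. Gm28439 was at 0 in replicate 1 and at 50781 in replicate 2 by RSEM, while kallisto gave it 20932 and 104419. With 3 counts as the most that a count of 0 allows in replicate 1, the RSEM counts of Gm28439 were at least 24911-fold higher in replicate 2. That bound covers counting error only. The sequence is identical to 876 bases of mt-Nd4, and the bound does not cover how shared reads were divided. By kallisto the log2 ratio of Gm28439 was 2.24.

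Between programs, each member's share of all gene counts was compared within a library. Past 2-fold were 3 of 15 mRNAs and rRNAs in replicate 1 and 5 of 15 in replicate 2, beside 14.4% and 15.2% of all genes with at least 10 RSEM counts. The 5 were mt-Co2, mt-Atp6, mt-Co3, mt-Nd3 and mt-Nd4l, each higher by kallisto, by 1.34 to 3.25 on the log2 scale in replicate 2. After adding the copies, 0 of 15 were past 2-fold in either library, and these 5 lay between -0.40 and 0.07 in replicate 2. The 8 members without copies lay between -0.42 and 0.55 in the same library. Adding the copies was an alternative chosen after the data were seen.

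The complex I mRNAs, all subunits of the NADH dehydrogenase that passes electrons to ubiquinone, were counted as follows. mt-Nd1 (chrM:2751-3707) had 66406 RSEM counts in replicate 1 and 160666 in replicate 2. mt-Nd2 (chrM:3914-4951) had 34761 and 83563. Both were past 2-fold higher in replicate 2, with log2 ratios of 1.83 (counting interval 1.82 to 1.85) and 1.82 (1.80 to 1.84) from counts scaled by TMM, a factor that centres the bulk of genes. mt-Nd5 (chrM:11742-13565) had 152866 and 259254 counts and a log2 ratio of 1.32, and mt-Nd4 (chrM:10167-11544) had 107277 and 193135 and a ratio of 1.41. The 3 remaining members did not pass 2-fold by RSEM. mt-Nd3 (chrM:9459-9806) had 2232 and 3009 counts and a ratio of 0.99, against 5718 and 13683 counts and 1.18 by kallisto. mt-Nd4l (chrM:9877-10173) had 5089 and 3567 counts and a ratio of 0.04, which became -0.00062 with DESeq2 size factors. By kallisto mt-Nd4l had 13129 and 47817 counts and a ratio of 1.78, so mt-Nd3 and mt-Nd4l both passed 2-fold there. mt-Nd6 (chrM:13552-14070), the one mRNA on the minus strand, had 45885 and 50899 counts and a ratio of 0.71. Whether counting used strand is not known from the sources used here, so reads of mt-Nd6 and of the opposite strand cannot be told apart. With copies added, mt-Nd4l stood at 1.81, mt-Nd3 at 1.48 and mt-Nd4 at 1.74.

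mt-Cytb (chrM:14145-15288), the cytochrome b subunit of complex III, had 84997 and 167027 RSEM counts and a log2 ratio of 1.53 (1.52 to 1.54). It was past 2-fold higher in replicate 2 by both programs, with 1.29 by kallisto.

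The complex IV mRNAs encode the catalytic core of cytochrome c oxidase. mt-Co1 (chrM:5328-6872), which carries the oxygen-reducing centre, was the most counted member, at 675110 and 1023430 RSEM counts, or 53.9% and 51.0% of all mitochondrial counts. Its log2 ratio was 1.16 by RSEM and 0.92 by kallisto, so the 2-fold line was passed by RSEM alone. mt-Co2 (chrM:7013-7696), which receives electrons from cytochrome c, had 4209 counts in replicate 1 and 1923 in replicate 2, the one mRNA with a ratio below 0 (-0.57, counting interval -0.65 to -0.49). That interval leaves out how reads were divided between mt-Co2 and its copies. The kallisto counts of mt-Co2 were 21927 and 19413, with a ratio of -0.26. Added to its copies, mt-Co2 had 128895 and 175679 RSEM counts and 135412 and 239999 kallisto counts, and the ratio was 1.00 and 0.74. In the RSEM table's posterior mean counts, mt-Co2 alone had 12282 and 14278 counts and a ratio of 0.77. The ratio for mt-Co2 was thus below 0 in the counts of the gene alone by both programs. It was above 0 in posterior mean counts and with copies added, and the cause of this change of sign was not tested. mt-Co3 (chrM:8607-9390) had 12533 and 9061 RSEM counts and a ratio of 0.09, against 1.04 with its copy.

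mt-Atp8 (chrM:7766-7969) and mt-Atp6 (chrM:7927-8607), subunits of the proton-conducting part of ATP synthase, are read from 1 mRNA in overlapping frames. The shared stretch, chrM:7927-7969 on the plus strand, is shown from GENCODE M21 because reads inside it fit both genes, with the start codon of mt-Atp6 in capitals.
mt-Atp8 and mt-Atp6: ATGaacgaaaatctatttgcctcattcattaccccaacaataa

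mt-Atp8 had 8271 and 26383 RSEM counts and the highest log2 ratio of the 13 mRNAs, 2.23 (2.20 to 2.27). mt-Atp6 had 8638 and 14522 RSEM counts and a ratio of 1.31, and 89698 and 248329 kallisto counts and a ratio of 1.39. Although the genes share an mRNA, the log2 difference of kallisto over RSEM in replicate 2 was 3.25 for mt-Atp6 and -0.20 for mt-Atp8.

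Over the 13 mRNAs the median log2 ratio was 1.31, beside 0.01 over 14831 genes tested (mean count of at least 10). Past 2-fold higher were 8 of 13, beside 7.52% of all genes, and past 2-fold lower were 0 of 13, beside 5.85%. Scaling by library totals moved the median of all genes by 0.17 and that of the 13 mRNAs to 1.47. By kallisto the median was 1.22 and 9 of 13 were past 2-fold higher, beside 10.9% of genes. With copies added, the RSEM ratios ran from 0.71 to 2.23 with a median of 1.48, and 12 of 13 were past 2-fold higher, mt-Nd6 being the exception. The same sums by kallisto ran from 0.66 to 2.06, with 9 of 13 past 2-fold. On both sums the ratio of mt-Nd6 was the lowest and that of mt-Atp8 the highest. The 2 libraries form 1 group, so these ratios describe the libraries and have no test.

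**Figure D3:**
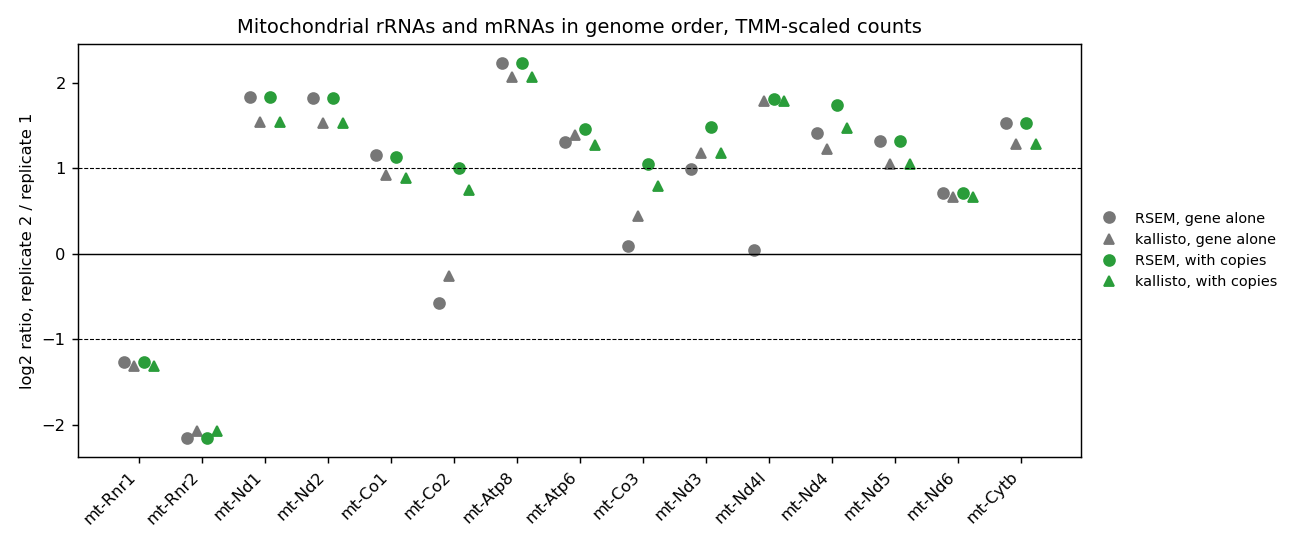
Log2 ratio of replicate 2 over replicate 1 for the 2 rRNAs and 13 mRNAs in genome order, from TMM-scaled counts of the gene alone (grey) and with nuclear copies added (green), by RSEM (circles) and kallisto (triangles). Dashed lines mark 2-fold. mt-Co2 moves from -0.57 to 1.00 and mt-Nd4l from 0.04 to 1.81 by RSEM once copies are added, and both rRNAs stay below -1.

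Levels of different mRNAs were compared per length, as RSEM counts with copies added per kilobase of annotated gene, in percent of the sum over the 13. mt-Co1 came first at 29.6% ± 2.79 (SD, n = 2; 31.6% and 27.6%). mt-Co2 followed at 12.0% ± 1.88, then mt-Atp6 at 10.02% ± 0.657 and mt-Co3 at 7.96% ± 1.09. The gap to the next member was larger than the larger of the 2 SDs for each of these 4. mt-Nd4 (6.45%), mt-Nd1 (5.96%), mt-Nd5 (5.93%), mt-Cytb (5.68%), mt-Nd6 (5.18%), mt-Atp8 (4.13%), mt-Nd4l (3.05%) and mt-Nd2 (2.86%) came next, and no member of this run stood apart from its neighbour within the run by more than that spread. mt-Nd3 was last at 1.13% ± 0.0862, below mt-Nd2 by more than the spread. Complex IV mRNAs thus held 3 of the 4 highest mean levels per length on this scale. In replicate 2 alone mt-Co3 (7.19%) was below mt-Nd4 (7.38%), and also by kallisto counts per kilobase (6.88% against 7.16%). By kallisto mt-Co2 (10.2%) was below mt-Atp6 (10.6%) in that replicate too. The scale divides by annotated length and not by effective length, the length left to place a fragment, which can lower short genes. RSEM's effective length in replicate 1 was 131 of 348 bases for mt-Nd3 and 816 of 1038 for mt-Nd2. In kallisto TPM, mt-Nd3 took 2.28% and 1.90% of the 13 mRNAs and mt-Nd2 2.37% and 3.08%, so they were close in replicate 1.

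Deposited TPM gave another order. mt-Atp8 took 23.5% of mitochondrial mRNA TPM in replicate 1 and 41.8% in replicate 2, at 7574 and 52266 TPM. Per kilobase of annotated gene it took 2.87% and 5.39%. RSEM divided its counts by an effective length of 22.3 bases in replicate 1 and 19.5 in replicate 2, for an annotated length of 204 bases. kallisto used 43.0 and 56.6 bases, and its TPM share of mt-Atp8 was 11.2% and 17.0%. mt-Co2 took 0.578% and 0.128% of mitochondrial mRNA TPM by RSEM, where it took 13.4% and 10.7% per kilobase with its copies. For mt-Nd5, which is long and has no copy above the 25% share, both scales were close, at 6.06% and 4.98% of TPM against 5.94% and 5.93% per kilobase.

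**Figure D4:**
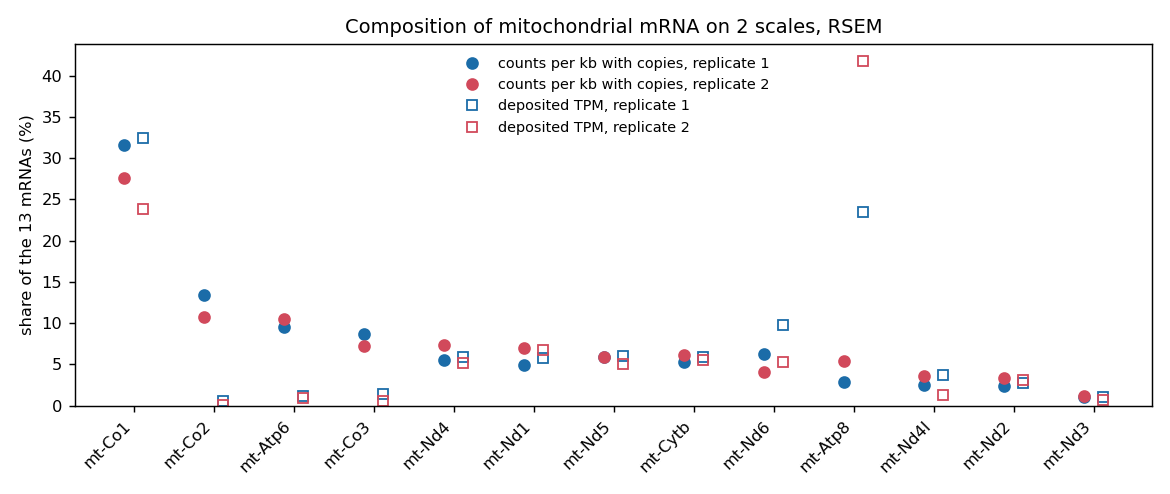
Share of each mitochondrial mRNA in the sum over the 13, in percent, by RSEM counts per kilobase with copies added (filled circles) and by deposited RSEM TPM (open squares), for both replicates. mt-Atp8 stands at 2.87% and 5.39% on the first scale and 23.5% and 41.8% on the second, and mt-Co2 falls from 13.4% and 10.7% to under 1%.

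The deposited RSEM tables also give a credibility interval for each TPM. In both libraries the TPM of 3 members lay below its own interval, and they were mt-Co2, mt-Atp6 and mt-Co3. For mt-Co2 the TPM of 186 in replicate 1 stood against an interval of 366 to 725, and 160 in replicate 2 against 716 to 1538. For mt-Co3 the TPM of 456 and 620 stood against 1150 to 1764 and 2763 to 3817. The TPM of 10 members lay above its interval, and that of mt-Nd3 and mt-Nd4l inside it.

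The 2 rRNAs, which form the small and large subunits of the mitochondrial ribosome, went the other way from the mRNAs. mt-Rnr1 (12S, chrM:70-1024) had 18661 RSEM counts in replicate 1 and 5295 in replicate 2, with a log2 ratio of -1.26 (-1.30 to -1.22). mt-Rnr2 (16S, chrM:1094-2675) had 25705 and 3935 counts and a ratio of -2.15 (-2.20 to -2.10). Both were past 2-fold lower by both programs, with kallisto ratios of -1.31 and -2.07, where 5.93% of all genes were past 2-fold lower. Neither had a nuclear copy at the 25% share. In deposited TPM, at 521 and 278 for mt-Rnr1 and 387 and 111 for mt-Rnr2, the log2 ratio of mt-Rnr1 was -0.90 and did not pass 2-fold. The rRNAs made up 3.54% of mitochondrial counts in replicate 1 (exact interval 3.51 to 3.57) and 0.460% in replicate 2 (0.451 to 0.470). With nuclear copies in the total they made up 2.83% and 0.363%. These libraries were depleted of ribosomal RNA, so rRNA levels are what depletion left, and the part of depletion in this difference was not tested. By RSEM, mt-Rnr2 had more counts than mt-Rnr1 in replicate 1 and fewer in replicate 2, while by kallisto it had more in both (41101 against 23125, and 10366 against 9893).

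The 22 tRNAs, 59 to 75 bases long, were listed at 0 in both RSEM tables with an effective length of 0, so those tables hold no measurement of them. kallisto gave them effective lengths of 17.2 to 20.9 bases in replicate 1 and 14.3 to 15.4 in replicate 2, and counts summing to 1699 and 3260. These were 0.114% and 0.103% of mitochondrial counts. The stated size range of 250 to 400 lies above the length of a tRNA, and in these counts a mature tRNA and a longer precursor cannot be told apart. As for mt-Nd6, reads of a tRNA and of the opposite strand cannot be told apart.

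The tRNA counts separated by coding strand. The 8 minus-strand tRNAs held 96.5% of tRNA counts in replicate 1 and 84.1% in replicate 2. Their counts ran from 15 to 663 in replicate 1 and from 40 to 727 in replicate 2. The 14 plus-strand tRNAs ran from 0 to 9 and from 5 to 78, so the groups did not overlap in replicate 1 and overlapped in replicate 2. A total of 18 tRNAs reached 10 counts in either library, all 8 of the minus strand and 10 of the plus strand.

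The sequences of the 5 minus-strand tRNAs with the highest mean kallisto counts, and of the 3 plus-strand tRNAs with the most counts in replicate 2, are printed from GENCODE M21 (mm10) as the coding-strand DNA, with the anticodon in capitals. Anticodons are the textbook triplets, placed at the middle of a loop of 7 bases closed by the best-pairing stem. The first 5 lie on the minus strand, at chrM:15356-15422, chrM:6870-6938, chrM:5192-5257, chrM:5089-5159 and chrM:14071-14139, and the last 3 on the plus strand, at chrM:2676-2750, chrM:11546-11612 and chrM:9808-9875.
mt-Tp: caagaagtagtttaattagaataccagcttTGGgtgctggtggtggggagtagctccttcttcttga
mt-Ts1: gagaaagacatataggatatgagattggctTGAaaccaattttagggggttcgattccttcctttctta
mt-Tc: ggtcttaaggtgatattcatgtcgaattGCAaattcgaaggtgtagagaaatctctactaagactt
mt-Tn: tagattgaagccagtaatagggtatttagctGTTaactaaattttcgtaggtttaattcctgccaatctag
mt-Te: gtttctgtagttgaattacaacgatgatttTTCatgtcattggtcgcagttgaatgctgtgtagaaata
mt-Tl1: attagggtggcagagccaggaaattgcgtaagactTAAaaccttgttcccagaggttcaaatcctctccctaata
mt-Th: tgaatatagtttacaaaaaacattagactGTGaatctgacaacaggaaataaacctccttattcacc
mt-Tr: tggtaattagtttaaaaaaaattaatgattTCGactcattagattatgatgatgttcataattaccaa

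Among the minus-strand tRNAs, those for proline and serine (mt-Tp and mt-Ts1) were the most counted, with ratios near 0. mt-Tp had 663 and 672 kallisto counts and a log2 ratio of -0.06 (counting interval -0.22 to 0.09), which was 0.31 by library totals. mt-Ts1 had 552 and 727 counts and a ratio of 0.31. The tRNA for glutamate, mt-Te, had 175 and 107 counts and a ratio of -0.79. mt-Te (chrM:14071-14139) abuts mt-Nd6, the minus-strand mRNA with the lowest ratio of the 13 once copies are added. The other 5 of the 8 passed 2-fold higher in replicate 2, beside 10.9% of all genes by kallisto. These were mt-Tc, for cysteine, at 126 and 537 counts (ratio 2.01), mt-Tn, for asparagine, at 40 and 383 (3.16), mt-Ty, for tyrosine, at 52 and 207 (1.90), mt-Ta, for alanine, at 15 and 70 (2.10), and mt-Tq, for glutamine, at 16 and 40 (1.22). Of these 5, 4 (mt-Ta, mt-Tn, mt-Tc and mt-Ty) lie side by side between mt-Nd2 and mt-Co1.

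All 14 plus-strand tRNAs had under 10 kallisto counts in replicate 1. After scaling, 13 of the 14 were higher in replicate 2 and mt-Tf, for phenylalanine, was lower (8 and 5 counts). The kallisto median over all genes tested was 0.04. The counting intervals of mt-Tf, mt-Tv, mt-Tw, mt-Td and mt-Tt included 0. A mean of at least 10 counts was reached by 9 of the 14 through replicate 2 alone. These 9 therefore had to differ, and nothing is read from their direction or from how many passed 2-fold. The tRNAs for leucine were counted at 6 and 78 (mt-Tl1) and at 1 and 44 (mt-Tl2), the one for histidine (mt-Th) at 9 and 75, the one for arginine (mt-Tr) at 2 and 68, and the one for methionine (mt-Tm) at 8 and 53. mt-Ts2, the second serine tRNA, had 4 and 52, mt-Tg, for glycine, 7 and 46, mt-Ti, for isoleucine, 2 and 34, and mt-Tk, for lysine, 4 and 30. The log2 ratios of these 9 ran from 2.55 (mt-Tg) to 4.82 (mt-Tl2). The interval for mt-Tl2 was 2.82 to 10.71, set by its single count in replicate 1. mt-Tw, for tryptophan, had 5 and 13 counts. The other 4, mt-Tf, mt-Tv, mt-Td and mt-Tt, had under 10 counts in both libraries. In scaled counts (CPM), the plus-strand tRNAs together had 1.74 and 14.2 and the minus-strand tRNAs 47.7 and 75.4.

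**Figure D5:**
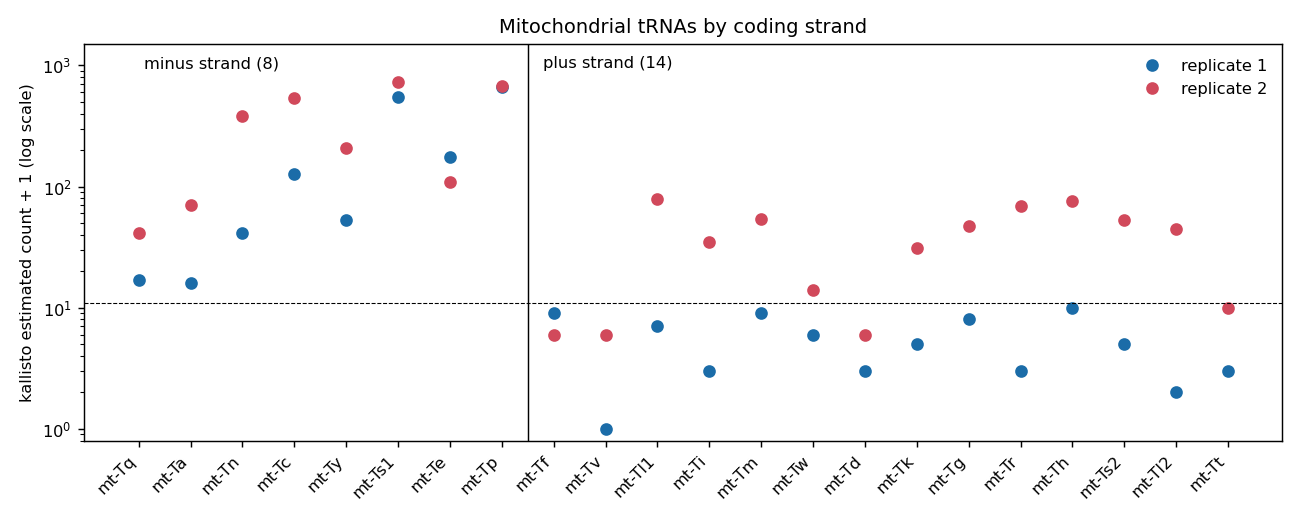
kallisto estimated count plus 1, on a log scale, for the 22 mitochondrial tRNAs by coding strand. Each point is 1 library, and the dashed line marks 10 counts. The minus-strand tRNAs reach 663 and 727 counts and the plus-strand tRNAs 9 and 78 in replicates 1 and 2.

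The nuclear genes that make and use these RNAs were close to the median of all genes. Of 65 matched genes in 4 lists (transcription and replication, RNA processing and modification, stability and decay, translation factors), 0 were past 2-fold higher and 2 past 2-fold lower in replicate 2, beside 7.52% and 5.85% of all genes. Both counts are below those shares, and the difference was not tested. The median log2 ratio of the 65 genes was 0.03, beside 0.01 over all genes and 1.31 over the 13 mRNAs. 

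Among 18 genes of mitochondrial transcription and replication, none was past 2-fold, beside 7.52% of all genes higher and 5.85% lower. The highest were Mterf3, a regulator of mitochondrial transcription, at 14.7 and 21.1 TPM, Polg, the DNA polymerase, at 12.6 and 13.8, and Ssbp1, the single-strand binding protein, at 7.60 and 7.32. The lowest with a mean of 10 counts was Top1mt, the mitochondrial topoisomerase, at 0.28 and 0.21 TPM, and it also had the most negative log2 ratio (-0.77, counting interval -2.09 to 0.37). Tfb1m, an rRNA methyltransferase, had the most positive (0.71, interval -0.12 to 1.58). Both intervals include 0.

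Of 23 genes for RNA processing and modification, 1 was past 2-fold lower, near the 5.85% of all genes: Mrm2, an rRNA methyltransferase, at 59 and 12 counts (ratio -1.71, interval -2.77 to -0.83). The highest were Trnt1, which adds the CCA end to tRNAs, at 11.7 and 11.1 TPM, Fastk at 11.4 and 11.3 and Tbrg4 at 6.48 and 12.0. Mrm3, another rRNA methyltransferase, was lowest at 0.36 and 0.39 TPM. Hsd17b10, a subunit of the complex that cuts tRNA 5′ ends, had the most positive ratio, 0.87.

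Of 12 stability and decay genes, 0 were past 2-fold, beside 7.52% of all genes higher and 5.85% lower. Rexo2, which degrades short RNA fragments, had 9.14 and 15.3 TPM, Pnpt1, the exoribonuclease of mitochondrial RNA decay, 11.9 and 9.35, and Ptcd3 6.55 and 11.5. Pnpt1 and Ptcd3 were also the extremes of the list, with ratios of -0.68 and 0.60, and Ptcd2 was the lowest at 1.55 and 2.31 TPM. Of 12 translation factors, 1 was past 2-fold lower, near the 5.85% of all genes. It was Taco1, an activator of mt-Co1 translation, at 66 and 20 counts (ratio -1.15, counting interval -1.97 to -0.42). Malsu1 was highest at 7.15 and 12.3 TPM, followed by Gfm2 at 7.53 and 9.62 and Oxa1l, which inserts proteins into the inner membrane, at 5.54 and 8.99. Mtrf1, a release factor, was lowest at 0.32 and 0.62 TPM, and Mrrf, the ribosome recycling factor, had the most positive ratio, 0.82 (0.27 by kallisto).

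The nuclear-encoded partners of the 13 proteins in the same complexes were 30 subunits, and 0 were past 2-fold in either direction, beside 7.52% of all genes higher and 5.85% lower. That is below both shares of all genes, and the difference was not tested. The median log2 ratio of the 30 subunits was -0.19, and 30 of 30 were above 1 TPM in both libraries. Atp5b, the catalytic subunit of ATP synthase, was highest at 53.7 and 90.2 TPM, followed by Cox7c at 28.1 and 48.7 and Cox4i1 at 30.5 and 30.9, both of complex IV. Ndufa9 was lowest at 3.85 and 2.88 TPM. The extremes by RSEM were Uqcrb, of complex III, at 0.90 and Ndufs3, of complex I, at -0.81, against 0.10 and -0.58 by kallisto. The median level of these subunits was 9.03 and 9.66 TPM.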

How the data were processed

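The depositors quantified each library on mm10 with GENCODE M21, per the file headers. In the authors' gene tables, with RSEM's column names, each gene has an expected count and a TPM, and in the transcript tables with kallisto's column names each transcript has an estimated count and a TPM, which were summed per gene here. The aligner, program versions and strandedness were not given in the sources used here. Rows naming no gene (0.766% and 0.272% of expected counts) were left out.

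Counts were rounded and scaled by TMM (edgeR 4.0.16, R 4.3.3) over genes whose mean count reached 10. Log2 ratios of replicate 2 over replicate 1 used a prior count of 0.5 and were called past 1. Counting intervals are exact binomial 95% (Clopper-Pearson), from reads without molecular identifiers. Words of 31 bases were compared over GENCODE M21 transcripts, and copies sharing at least 25% were added to a member. With 1 group no test between conditions was possible and no p-value was computed. The code was tested on simulated data.

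The members and lists were chosen with earlier results of these data known. Values are given for all mRNAs and rRNAs and each tRNA with 10 counts in a library, and for the 3 highest, the lowest and both extreme ratios of each nuclear-encoded list. Of the copies, the 4 highest were to be named, and the others were named after their values were seen. The symbols Prorp, Fastkd4 and Mrpp3 matched no gene. Alternatives were DESeq2 1.42.0 size factors, library totals, other gene sets and filters, TPM, kallisto and leaving out a replicate.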

Additional observations from a re-analysis of the deposited data

How the results depend on the processing

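No paired analysis was possible because the labels give 1 group. Leaving out a library left a single value: the mitochondrial share then ranged from 4.26% to 11.3% of counts and from 3.31% to 12.6% of TPM, the rRNA share of mitochondrial counts from 0.460% to 3.54%, and the number of tRNAs with 10 RSEM counts was 0 in each. A ratio needs both libraries and has no such value. Counting nuclear copies with the members took the mean share of RSEM counts from 7.77% to 9.81%. The mitochondrial share of TPM was 7.94% over all genes and 28.7% over protein-coding and mitochondrial genes. Scaling by the mitochondrial total, which keeps composition alone, gave a median log2 ratio of the 13 mRNAs of 0.070, 0 members past 2-fold higher and 5 lower, and turned mt-Co1 from 1.16 to -0.079. With deposited TPM, 1 member was past 2-fold lower and not 2. Under the other alternatives for these results, the median, the 8 higher and the 2 lower stayed on their side of the threshold or within 1.5 times. Adding nuclear copies, chosen after seeing the data, took the members past 2-fold between programs from 3 and 5 to 0 and 0. kallisto gave 18 tRNAs with 10 counts where RSEM gave 0. Medians of the nuclear lists changed sign near 0: with DESeq2 size factors they were -0.0052 (transcription and replication), -0.034 (processing) and -0.023 (stability), and with kallisto -0.14, -0.12, -0.15 and, for translation factors, -0.093. For single mRNAs and rRNAs, 162 of 195 recomputed ratios kept direction and side of 2-fold, 14 newly passed it in the same direction and 10 no longer passed. Sign changed in 3 that newly passed 2-fold, in 5 that stayed below it and in mt-Co1, given above. For tRNAs 45 of 51 kept both, 2 newly passed, 2 no longer passed and 2 below it changed sign. Apart from the scaling, prior count, unit and copies named, the cause was not tested. Counts under 10 in replicate 1 limit the plus-strand tRNA ratios.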
